A study of Mus musculus with 4 samples.

Results

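The genes that carry glucose into the cell, break it down to lactate and answer to low oxygen were followed across 4 states of cultured mouse macrophages. The set held 39 genes, chosen by name for their role with earlier results of these data known. All 39 were found on the arrays among 23517 genes with a symbol. They comprised 3 glucose transporters, 11 genes of upper glycolysis, 7 of lower glycolysis, 5 that handle pyruvate and lactate, 5 of oxygen sensing and 8 targets of the hypoxia response. For each gene the brightest of its probes was used, and at that probe all 39 genes were well above background on all 4 arrays.

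Bone marrow cells of 10-week-old C57BL/6J mice were cultured for 6 days with supernatant of L929 cells, a source of macrophage growth factor, and the resulting bone marrow-derived macrophages (BMDMs) were then stimulated for 2 days. Wild-type M1 BMDMs received LPS at 100 ng/ml with IFNg at 20 ng/ml, and wild-type M2 BMDMs received 50 ng/ml IL-4. Lamtor1-deficient M2 BMDMs received the same IL-4 and came from mice labelled p18 (2400001E08Rik) -/-, p18 being an older name of Lamtor1, the lysosomal anchor on which mTORC1 is activated by amino acids. By the study's methods these mice were Lamtor1 flox/flox with 1 copy of LysM-Cre, which acts in myeloid cells, so that Lamtor1 was removed in the myeloid lineage and not in the whole animal. The methods give the littermate controls as Lamtor1 flox/flox and also name purchased wild-type C57BL/6J mice. Their section on the arrays calls the other cells wild-type without saying which of these mice gave them. Torin1-treated M2 BMDMs were wild-type cells given IL-4 together with Torin1, a compound that blocks the kinase mTOR in both of its complexes, at 250 nM. Each condition had 1 array, hybridised in 1 colour with Cy3-labelled RNA, so there is no spread between replicates, no test and no p-value for any comparison, and each ratio compares a pair of arrays.

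Levels are given as multiples of the array's 75th percentile, and differences as log2 ratios between arrays. A difference is counted when it reaches 2-fold, or 1 on the log2 scale. The only error at hand is technical. Taking the probes with at least 8 spots, a log2 ratio had a median SD of 0.090 for Lamtor1-deficient over wild-type M2, 0.093 for Torin1-treated over wild-type M2, 0.098 for M1 over M2 and 0.092 for Torin1-treated over Lamtor1-deficient M2 BMDMs. These SDs cover the spots of 1 array and leave out the spread between cultures and animals. The 3 comparisons with wild-type M2 share that array, so its errors enter all of them, and the direct comparison of Torin1 treatment with Lamtor1 loss does not use it.

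The array labelled as deficient in Lamtor1 carried 1.55 times its 75th percentile at the Lamtor1 probe, against 66.3 for wild-type M2, 74.96 for Torin1-treated M2 and 51.2 for M1 BMDMs. All 8 macrophage markers examined (Emr1, Cd68, Csf1r, Itgam, Mertk, Cd14, Lyz2 and Fcgr1) were well above background on every array, with summed signals between 474.9 and 799.2. Single markers differed between arrays, Emr1 standing at 111.6 in wild-type M2, 18.8 in Lamtor1-deficient M2, 15.9 in Torin1-treated M2 and 54.4 in M1. Fcgr1 parted further, at 5.20, 0.167, 0.213 and 29.2 in the same order, and Cd14 was lower in Lamtor1-deficient M2, at 5.62, than on the other arrays, at 20.4 to 24.6. The arrays also carried markers of other cells, and their part in the results below was not tested. The summed signal of the 6 neutrophil markers measured on all arrays was 90.5 for wild-type M2 and between 4.41 and 6.30 on the other arrays, most of it from S100a9, at 65.3 on the M2 array. Elane, a further neutrophil marker, was at 52.1 for M1, 12.4 for wild-type M2 and 18.6 for Lamtor1-deficient M2, and its spot on the Torin1 array was left out as an outlier. The 6 fibroblast markers summed to 43.2 for wild-type M2, 55.9 for Lamtor1-deficient M2, 15.3 for Torin1-treated M2 and 16.0 for M1. Lymphocyte markers summed to at most 4.41 and erythroid markers to at most 0.813, and Ms4a1 and Alas2 were not well above background on any array. In bulk RNA a smaller number of cells of a type and less RNA per cell cannot be told apart.

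Glycolysis converts glucose to pyruvate in the cytosol, and lactate dehydrogenase can turn the pyruvate into lactate, which leaves the cell through monocarboxylate transporters. The pathway answers to oxygen through the transcription factors HIF-1 and HIF-2. Their alpha subunits, encoded by Hif1a and Epas1, are hydroxylated by the prolyl hydroxylases encoded by the Egln genes when oxygen is present, and are then bound by the Vhl protein and degraded. Macrophages stimulated with LPS and IFN-gamma are known for strong glycolysis, IL-4-stimulated macrophages for oxidative metabolism, and mTORC1 is a known activator of glycolytic genes and of HIF-1alpha. These statements are background from other work.

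HIF binds a short core sequence, ACGTG or GCGTG. The RefSeq promoter table on GRCm38.p6, with 250 bases before and 50 after each gene's start, held promoters for 36 of the 39 genes, and Slc2a3, Ndrg1 and Epas1 had no entry. A core was present on either strand in at least 1 promoter of 32 of these 36 genes (88.9%), of 46.7% of all genes in the table, and of 65.1% of genes detected on all 4 arrays. By promoter the shares were 40 of 50 for the members (80%), 43.8% for the whole table and 59.6% for the genes detected on all arrays. Gpi1, Tpi1, Eno2 and Vhl held none in this window. All 7 hypoxia targets with an entry held at least 1. These letters are short and common, and a match is not a binding site.

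The promoters of 8 members with differences in the comparisons that follow are shown. Others with a promoter entry had differences larger than some of these and are not shown, such as Ldhb, Vegfa, Slc16a3, Slc2a6 and Aldoc. Whether matches go with the differences was not tested. Egln3, Ankrd37, Bnip3 and Pfkfb3 were far higher in M1, Ldha, Higd1a and Pdk1 were lower after Torin1, and Eno2, without a match, was higher than wild-type M2 on each of the other arrays. Each line gives the 250 bases before the start in the gene's direction, and for a gene with several starts the promoter with the most matches. Capitals mark ACGTG and GCGTG, or CACGT and CACGC where the core lies on the other strand, so a palindromic CACGTG holds 2 overlapping matches.
Egln3: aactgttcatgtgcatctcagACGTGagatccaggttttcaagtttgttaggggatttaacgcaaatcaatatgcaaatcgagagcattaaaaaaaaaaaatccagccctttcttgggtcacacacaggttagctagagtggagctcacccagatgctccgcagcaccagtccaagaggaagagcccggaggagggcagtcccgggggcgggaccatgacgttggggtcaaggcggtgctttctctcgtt
Ankrd37: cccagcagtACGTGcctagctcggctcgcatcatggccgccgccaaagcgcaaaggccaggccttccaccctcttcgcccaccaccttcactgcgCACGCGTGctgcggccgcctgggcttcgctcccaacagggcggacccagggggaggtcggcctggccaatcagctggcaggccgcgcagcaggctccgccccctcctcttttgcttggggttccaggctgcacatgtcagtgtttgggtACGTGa
Bnip3: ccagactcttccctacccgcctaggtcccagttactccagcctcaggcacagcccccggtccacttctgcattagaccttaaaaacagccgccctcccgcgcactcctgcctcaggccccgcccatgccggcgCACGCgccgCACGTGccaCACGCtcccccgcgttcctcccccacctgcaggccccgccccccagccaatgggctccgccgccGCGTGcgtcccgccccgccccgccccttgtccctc
Pfkfb3: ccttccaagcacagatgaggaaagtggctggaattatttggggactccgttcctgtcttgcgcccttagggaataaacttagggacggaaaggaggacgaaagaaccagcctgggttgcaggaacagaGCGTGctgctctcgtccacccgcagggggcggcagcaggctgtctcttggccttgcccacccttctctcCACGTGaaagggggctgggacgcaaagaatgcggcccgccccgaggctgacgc
Ldha: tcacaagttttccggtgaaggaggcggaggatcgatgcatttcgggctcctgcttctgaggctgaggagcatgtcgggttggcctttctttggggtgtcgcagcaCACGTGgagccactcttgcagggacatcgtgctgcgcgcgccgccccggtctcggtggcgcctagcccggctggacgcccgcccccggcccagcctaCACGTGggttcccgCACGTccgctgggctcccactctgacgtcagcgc
Higd1a: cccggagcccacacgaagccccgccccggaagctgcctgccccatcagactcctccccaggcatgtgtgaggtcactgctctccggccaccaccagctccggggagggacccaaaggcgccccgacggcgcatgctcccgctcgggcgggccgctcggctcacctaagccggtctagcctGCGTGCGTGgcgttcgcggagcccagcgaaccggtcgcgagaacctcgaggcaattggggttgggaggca
Pdk1: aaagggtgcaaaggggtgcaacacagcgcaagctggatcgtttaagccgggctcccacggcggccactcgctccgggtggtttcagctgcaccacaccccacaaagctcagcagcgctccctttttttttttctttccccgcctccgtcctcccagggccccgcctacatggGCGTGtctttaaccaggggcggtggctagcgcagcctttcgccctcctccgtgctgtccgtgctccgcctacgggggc
Eno2: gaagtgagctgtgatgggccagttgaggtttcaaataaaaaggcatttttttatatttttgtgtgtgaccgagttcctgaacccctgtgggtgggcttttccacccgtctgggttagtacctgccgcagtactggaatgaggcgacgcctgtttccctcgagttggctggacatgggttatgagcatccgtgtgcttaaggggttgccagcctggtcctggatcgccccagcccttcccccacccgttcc
On GRCm38.p6 these stretches lie at chr12:54203875-54204124 (minus strand), chr8:45999851-46000100 (minus), chr7:138909507-138909756 (minus), chr2:11502091-11502340 (minus), chr7:46845554-46845803 (plus), chr9:121857797-121858046 (minus), chr2:71872974-71873223 (plus) and chr6:124769674-124769923 (minus). The printed stretch held 5 matches for Bnip3 and 5 for Ldha, whose full 300-base promoter held 7, 4 for Ankrd37, 3 for Pfkfb3, 2 for Higd1a, 1 each for Egln3 and Pdk1, and 0 for Eno2.

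The largest differences separated M1 from M2 BMDMs. Of the 39 genes, 28 were at least 2-fold higher in M1 and 3 at least 2-fold lower, with a median log2 ratio of 1.53. Over the 13384 genes detected on both arrays, 25.2% were at least 2-fold higher and 25.2% at least 2-fold lower, with a median of 0.09. The count of higher members depends on how the arrays are scaled. The 75th percentile was 286.8 for M1 and 594.8 for M2, while the medians were closer, at 25.7 and 30.1, and scaling to the median lowered every M1 ratio by the same amount. With that scaling 16 members were at least 2-fold higher and 6 lower, with a median of 0.71, and 1482 of the detected genes were higher and 5788 lower, with a median of -0.73. The 12 members that came under 2-fold with it were Slc2a3, Hk2, Gpi1, Aldoa, Aldoc, Gapdh, Pgk1, Pgam1, Pkm2, Ldha, Vhl and Higd1a. The lower members were Pfkfb4, Ldhb and Pdk1, joined with the median scaling by Slc2a6, Pfkm and Egln1. Quantile normalization gave 22 higher and 3 lower, with a median of 1.39, beside 20.5% and 27.6% of detected genes and a median of -0.08. Hk1, Pfkp, Slc16a1 and Epas1 had the other direction in M1 with the median scaling, and Hk1 and Aldoa with quantile normalization.

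Against the same wild-type M2 array fewer members were 2-fold apart after Lamtor1 loss than after Torin1, and after Torin1 more of them were lower than higher. In Lamtor1-deficient M2 6 of the 39 were at least 2-fold higher and 2 lower, with a median of 0.20, beside 7.88% higher and 7.75% lower over 14023 detected genes and a median of 0.09. After Torin1 4 were higher and 11 lower, with a median of -0.17, beside 12% higher and 13.1% lower over 14099 genes and a median of 0.02. Compared directly with Lamtor1-deficient M2, the Torin1-treated cells had 1 member higher and 9 lower, with a median of -0.47, beside 9.87% higher and 12.9% lower over 14058 genes and a median of -0.09. The share of lower members was thus 28.2% after Torin1 and 23.1% in the direct comparison, above the 13.1% and 12.9% among detected genes. With the median scaling these shares were 33.3% and 41%, beside 18.3% and 21.8% among detected genes. After Lamtor1 loss the members' shares were 15.4% higher and 5.13% lower, which rest on 6 and 2 genes. With the median scaling the Torin1 ratios of Slc2a1, Slc2a3, Gpi1, Pfkm, Aldoa, Tpi1, Gapdh and Slc16a3 had the other direction, all within 2-fold, as had Gpi1, Aldoa and Gapdh with quantile normalization.

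**Figure D1:**
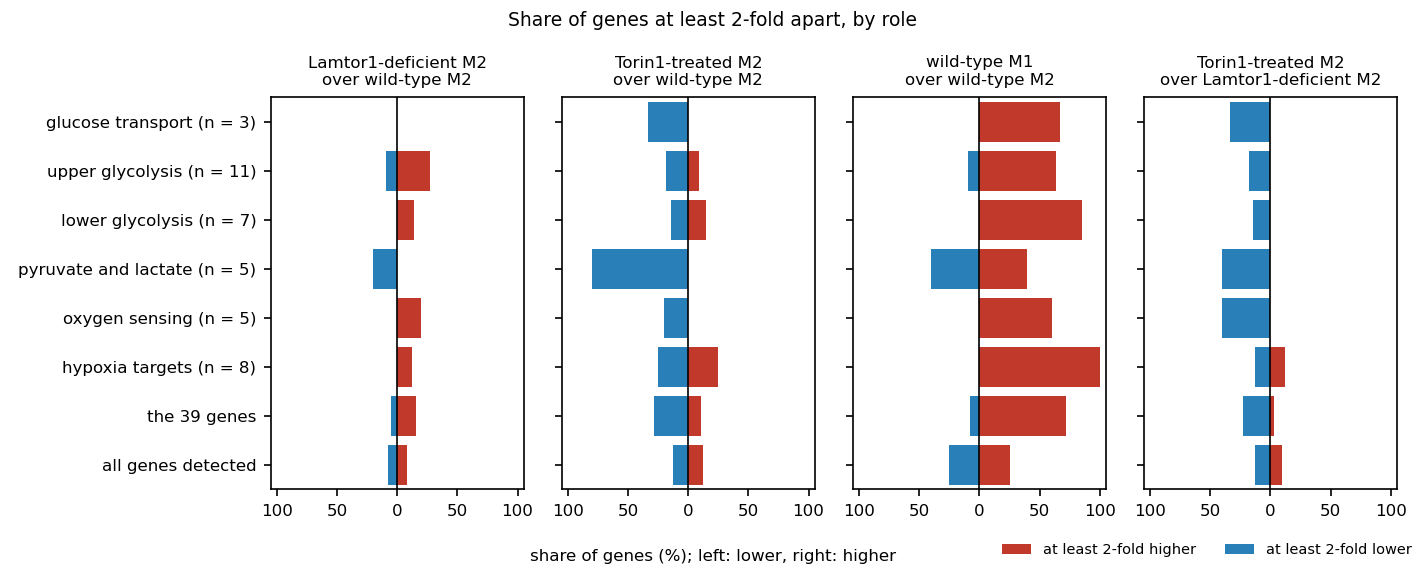
Share of genes at least 2-fold higher (red, to the right) or lower (blue, to the left) in each of the 4 comparisons, for the 6 groups of roles, for the 39 genes and for all genes detected on both arrays, with arrays scaled to the 75th percentile. In M1 over M2 all 8 hypoxia targets were higher (7 of 8 with arrays scaled to the median), and after Torin1 4 of the 5 pyruvate and lactate genes were lower than in wild-type M2.

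The 39 genes had their highest level on the M1 array in 30 cases, on the wild-type M2 array in 5, on the Torin1 array in 3 and on the Lamtor1-deficient array in 1. Their lowest level was on the Torin1 array in 20 cases, on the wild-type M2 array in 14, on the Lamtor1-deficient array in 3 and on the M1 array in 2. With arrays scaled to the median the highest level was on the M1 array for 24, the wild-type M2 array for 8, the Lamtor1-deficient array for 6 and the Torin1 array for 1. The lowest level was then on the Torin1 array for 27, the wild-type M2 array for 6, the M1 array for 5 and the Lamtor1-deficient array for 1. How often each array was highest or lowest over all detected genes was not counted. Such counts follow the scaling, which moved the M1 median of all detected genes from 0.09 to -0.73, so they are not read as particular to these genes. For 5 members, Hk1, Pfkm, Pfkp, Eno1 and Epas1, no comparison reached 2-fold at the probe used at the 75th percentile. With the median scaling Pfkp was at -1.18 after Torin1 and Pfkm at -1.50 in M1.

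**Figure D2:**
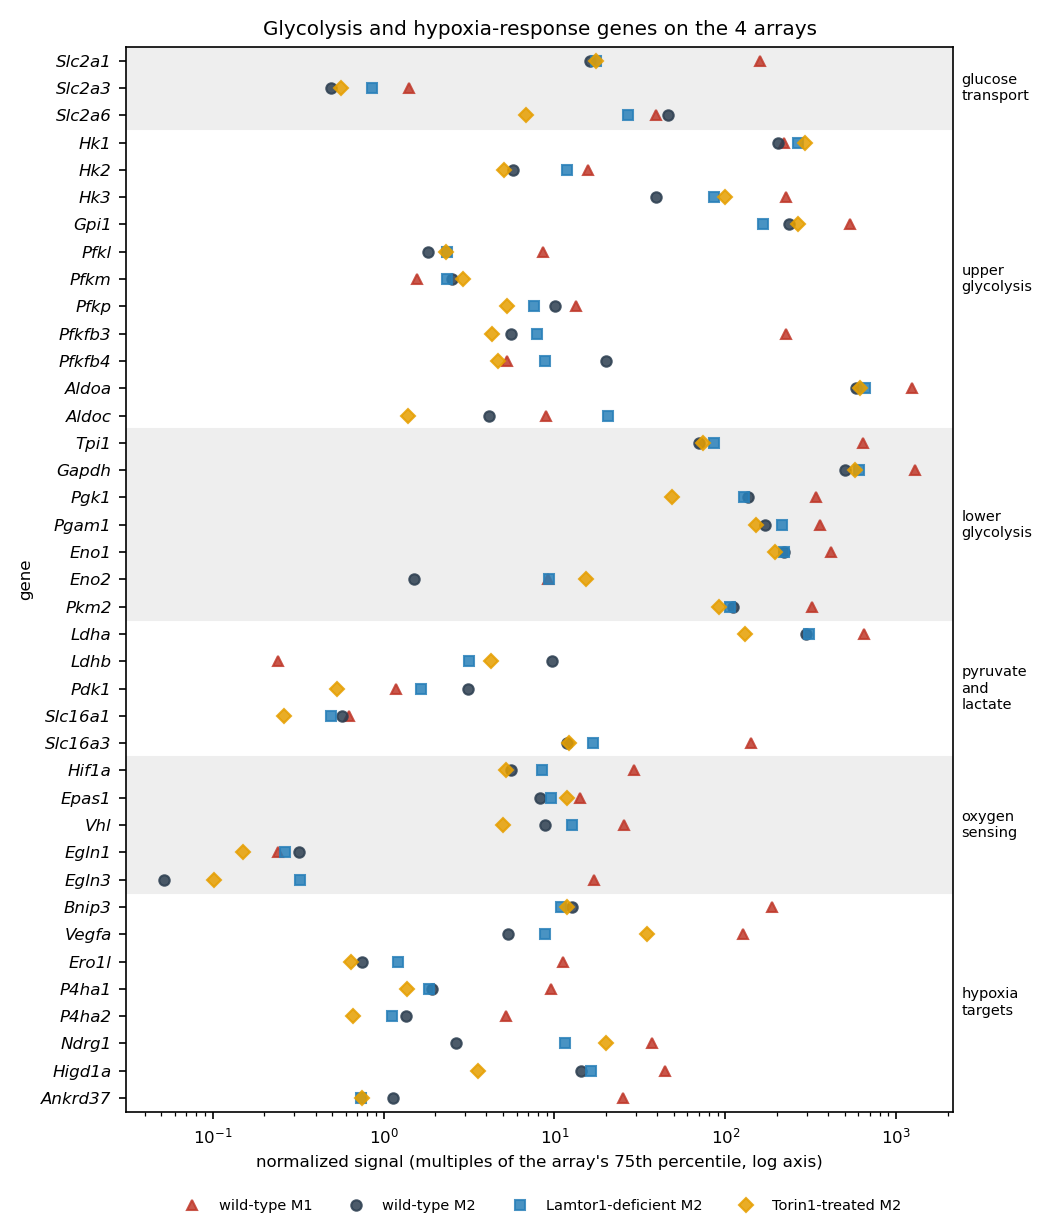
Normalized signal of each gene on the 4 arrays, as multiples of the array's 75th percentile on a log axis, grouped by role, with 1 point per array and no error bars because each condition had 1 array. The M1 point (red triangle) lies to the right of the others for 30 of the 39 genes, among them all 8 hypoxia targets, and the Torin1 point (orange diamond) is the leftmost for 20. The same counts over all detected genes were not taken.

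Of the glucose transporters, Slc2a1 and Slc2a3 were lowest in wild-type M2 and Slc2a6 after Torin1, but with the median scaling Slc2a1 (-0.13) and Slc2a3 (-0.04) were also lowest after Torin1. Slc2a1, which encodes GLUT1, the main carrier of basal glucose uptake (probe at chr4:118809864-118809923 on mm9), had a wild-type M2 level of 16.1, with 17.5 in Lamtor1-deficient M2, 17.5 in Torin1-treated M2 and 159.7 in M1. The 3 IL-4-stimulated states were nearly equal and M1 was 9.90-fold higher than wild-type M2, a log2 ratio of 3.31. Slc2a3, encoding the high-affinity transporter GLUT3, stood at 0.490 in wild-type M2, 0.855 after Lamtor1 loss, 0.564 after Torin1 and 1.41 in M1, so that only M1 passed 2-fold (log2 ratio 1.53). Slc2a6 encodes a transporter found in lysosomal membranes. Its level was 46.3 in wild-type M2, 26.8 in Lamtor1-deficient M2, 6.77 in Torin1-treated M2 and 39.03 in M1. Torin1 set it apart from all other states, with a log2 ratio of -2.77 to wild-type M2 and -1.98 to Lamtor1-deficient M2, and the second Slc2a6 probe gave -3.06 and -2.13.

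Upper glycolysis begins with the hexokinases, which phosphorylate glucose. Hk2, the inducible form, read 5.69 in wild-type M2, 11.9 in Lamtor1-deficient M2, 5.05 after Torin1 and 15.8 in M1. Lamtor1-deficient M2 was 2.09-fold above wild-type M2 (log2 ratio 1.06), just past the 2-fold line and short of it where the 75th percentile was taken over detected probes, and Torin1-treated cells were below Lamtor1-deficient cells by 2.36-fold. Hk3, the form expressed in blood cells, was 39.5 in wild-type M2, 86.4 after Lamtor1 loss, 99.9 after Torin1 and 225 in M1, with log2 ratios of 1.13, 1.34 and 2.51 to wild-type M2. It was thus lowest in wild-type M2 and past 2-fold in each comparison with that array, except that Lamtor1 loss gave 0.95 with quantile normalization. Hk1, the widely expressed form, had 202, 267, 293 and 221 in the same order at its brightest probe and passed 2-fold nowhere, but a second probe gave log2 ratios of 1.15 after Lamtor1 loss, 1.18 after Torin1 and 3.1 in M1, and the dimmest gave 0.31, -0.67 and 1.63.

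Glucose 6-phosphate isomerase and the phosphofructokinases come next. Gpi1 had a wild-type M2 level of 234, with 166 in Lamtor1-deficient M2, 267 after Torin1 and 539.5 in M1, and its 3 probes gave M1 log2 ratios between 1.08 and 1.20, or 0.38 at the brightest probe with arrays scaled to the median. Pfkl, the liver-type subunit of phosphofructokinase, was at 1.82, 2.36 and 2.32 in wild-type, Lamtor1-deficient and Torin1-treated M2, and at 8.55 in M1. Among the subunits of this enzyme Pfkl alone was 2-fold higher in M1, with a log2 ratio of 2.23. Pfkm, the muscle-type subunit, was measured by 10 spots of 1 probe on each array, with an SD between 0.03 and 0.08 on the log2 scale, and its ratios to wild-type M2 were -0.10 after Lamtor1 loss, 0.22 after Torin1 and -0.67 in M1, the last -1.50 with the median scaling. Pfkp, the platelet-type subunit, had ratios of -0.41, -0.93 and 0.41, and its second, dim probe gave -0.66, -1.28 and -1.04.

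The bifunctional enzymes that make and remove fructose 2,6-bisphosphate, an activator of phosphofructokinase, went opposite ways in M1. Pfkfb3, the form with the strongest kinase activity (probe at chr2:11393453-11393512 on mm9), had a wild-type M2 level of 5.55, with 7.89 in Lamtor1-deficient M2, 4.30 in Torin1-treated M2 and 228 in M1. The M1 array was 41.1-fold above wild-type M2, a log2 ratio of 5.36 that was 6.61 at a second, dimmer probe, while the IL-4-stimulated states lay within 2-fold of one another at the 75th percentile, the direct comparison of Torin1 with Lamtor1 loss being -1.19 with the median scaling. Pfkfb4 (probe at chr9:108934652-108934711 on mm9) read 20.1 in wild-type M2, 8.82 after Lamtor1 loss, 4.71 after Torin1 and 5.28 in M1. It was highest in wild-type M2, and all 3 other states were at least 2-fold lower, with log2 ratios of -1.19, -2.10 and -1.93. The opposite M1 ratios of Pfkfb3 and Pfkfb4 kept their signs with each scaling of the arrays.

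Aldolase splits fructose 1,6-bisphosphate. Aldoa, the main form in most cells, was at 579 in wild-type M2, 655 in Lamtor1-deficient M2, 609.7 after Torin1 and 1243 in M1. Its M1 log2 ratio of 1.101 was 0.28 with arrays scaled to the median and -0.05 with quantile normalization. Aldoc, the brain-type form (probe at chr11:78140198-78140257 on mm9), was 4.12 in wild-type M2, 20.6 in Lamtor1-deficient M2, 1.39 in Torin1-treated M2 and 8.87 in M1. Aldoc was the single member at least 2-fold higher after Lamtor1 loss, with a log2 ratio of 2.32, and at least 2-fold lower after Torin1, with -1.57. Set directly against each other, the Lamtor1-deficient array was 14.9-fold above the Torin1 array, the largest difference of any member between these states.

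In lower glycolysis 6 of the 7 genes were at least 2-fold higher in M1 with the 75th percentile, beside 25.2% of detected genes, and 2 of 7 with the median scaling, beside 11.1%. After Torin1 5 of 7 lay within 2-fold of wild-type M2, as did 10561 of 14099 detected genes. Tpi1, which interconverts the triose phosphates, was at 70.2 in wild-type M2, 85.9 in Lamtor1-deficient M2, 73.7 after Torin1 and 640.2 in M1. The M1 log2 ratio of 3.19 was above that of Gapdh, Pgk1, Pgam1, Eno1 and Pkm2 and stayed past 2-fold with the median scaling, at 2.37. Gapdh, which makes NADH and is often used as a reference gene, read 499, 603 and 572 in wild-type, Lamtor1-deficient and Torin1-treated M2 and 1295 in M1, a log2 ratio of 1.38, or 0.56 with the median scaling and 0.23 with quantile normalization. After Torin1 its ratio was 0.20, and it was below 0 with the median scaling and with quantile normalization.

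Pgk1, the first of the steps that make ATP, had a wild-type M2 level of 135, with 129 in Lamtor1-deficient M2, 48.5 in Torin1-treated M2 and 341 in M1. Torin1 treatment left it 2.79-fold below wild-type M2 (log2 ratio -1.48), beside 0.20 for Gapdh and -0.18 for Pgam1, and Lamtor1 loss gave -0.07. Pgam1, phosphoglycerate mutase, stood at 171, 215 and 151 in the IL-4-stimulated states in the same order and at 358 in M1 (log2 ratio 1.06). Pkm2, pyruvate kinase of muscle type, was at 111, 107, 91.4 and 322, with an M1 ratio of 1.53. Eno1, the common enolase, had ratios of -0.0010 after Lamtor1 loss, -0.17 after Torin1 and 0.91 in M1. For Pgam1, Pkm2 and Eno1 both treated M2 arrays lay within 2-fold of wild-type M2, and with the median scaling none of the 3 was 2-fold higher in M1.

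Eno2, the enolase best known from neurons (probe at chr6:124710388-124710447 on mm9), was past 2-fold from wild-type M2 in each of the other states, as was Hk3. Its level was 1.501 in wild-type M2, 9.35 in Lamtor1-deficient M2, 15.3 in Torin1-treated M2 and 9.12 in M1. Wild-type M2 was the lowest state by a wide margin, and the log2 ratios to it were 2.64, 3.35 and 2.60. Gapdh, Pgk1, Eno1, Pgam1, Tpi1, Pkm2 and Ldha have processed pseudogenes or close copies in the mouse genome, and a probe may read these as well. The brightest Gapdh probe was placed on chromosome 7 and the Pgk1 probe on chromosome 3 by the array annotation, in both cases another chromosome than that of the gene in RefSeq, so the values of these genes are uncertain as to their source.

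**Figure D3:**
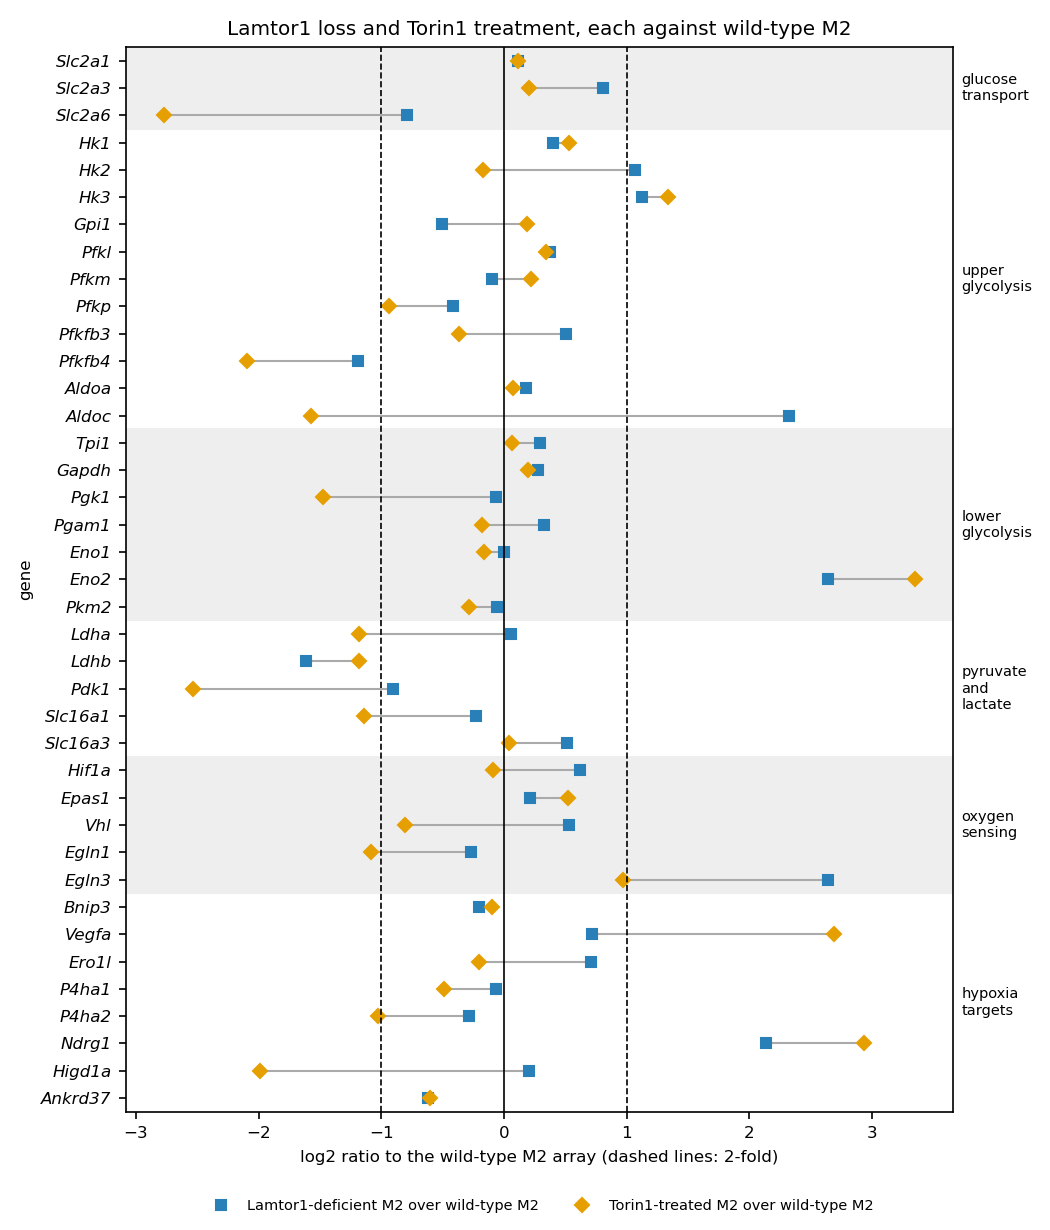
Log2 ratio of Lamtor1-deficient M2 (blue squares) and of Torin1-treated M2 (orange diamonds) to the shared wild-type M2 array for each gene, with dashed lines at 2-fold and a grey line joining both values of a gene. The values of Aldoc lie on opposite sides, 2.32 after Lamtor1 loss and -1.57 after Torin1, and the lowest Torin1 values are those of Slc2a6, at -2.77, and Pdk1, at -2.54.

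The genes that handle pyruvate and lactate formed the group with the most lower members after Torin1, 4 of 5, with a median log2 ratio of -1.18, beside 13.1% of detected genes, and 3 of 5 with normexp background correction. After Lamtor1 loss 1 of 5 was lower, beside 7.75%, with a median of -0.23. Ldha, the lactate dehydrogenase subunit that favours lactate formation (probe at chr7:54110937-54110996 on mm9), read 296 in wild-type M2, 308 in Lamtor1-deficient M2, 130.3 in Torin1-treated M2 and 652 in M1. Torin1 left it 2.27-fold below wild-type M2, a log2 ratio of -1.19, and its other probes gave -1.51 and -2.27, while Lamtor1 loss gave 0.06 at the first and -0.10 and -0.18 at the others. In M1 its ratio was 1.14, or 0.32 with the median scaling. Ldhb, the subunit of the oxidative form (probe at chr6:142438770-142438829 on mm9), was at 9.71 in wild-type M2, 3.17 after Lamtor1 loss, 4.27 after Torin1 and 0.241 in M1. It was lower than wild-type M2 in every other state, with log2 ratios of -1.61, -1.18 and -5.33, and the M1 array was 40.2-fold below, its ratio being -4.39 with normexp background correction.

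Pdk1 encodes a kinase that shuts off pyruvate dehydrogenase and so keeps pyruvate out of the mitochondrial cycle (probe at chr2:71739688-71739747 on mm9). Its level was 3.103 in wild-type M2, 1.66 in Lamtor1-deficient M2, 0.535 in Torin1-treated M2 and 1.19 in M1. Wild-type M2 was again the highest, and Torin1 gave the lowest level, 5.80-fold below it (log2 ratio -2.54), with -0.90 after Lamtor1 loss and -1.39 in M1. The lactate and pyruvate carrier Slc16a1, which encodes MCT1, stood at 0.575, 0.490, 0.261 and 0.626 in the same order and passed 2-fold only after Torin1 (log2 ratio -1.14, or -0.82 with normexp background correction). Slc16a3, encoding the lactate exporter MCT4, was 11.8 in wild-type M2, 16.8 in Lamtor1-deficient M2, 12.1 after Torin1 and 140.4 in M1. M1 was 11.9-fold above wild-type M2 at this probe, and both probes of the gene gave a log2 ratio of 3.58.

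Among the genes of oxygen sensing, Hif1a (probe at chr12:75047269-75047329 on mm9) had a wild-type M2 level of 5.54, with 8.51 in Lamtor1-deficient M2, 5.20 in Torin1-treated M2 and 29.1 in M1. The M1 array was 5.25-fold above wild-type M2, a log2 ratio of 2.39 that was 1.57 with the median scaling, and Torin1 gave -0.09. The arrays read the transcript and say nothing of HIF-1alpha protein, which is set mainly by its degradation. Vhl, the recognition part of the ligase that marks HIF for degradation, was at 8.75 in wild-type M2, 12.6 after Lamtor1 loss, 5.01 after Torin1 and 25.4 in M1. At the 75th percentile neither treated M2 array was 2-fold from wild-type M2, but Torin1 gave -1.05 with the median scaling, and the Torin1 array was 2.52-fold below the Lamtor1-deficient one.

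The prolyl hydroxylases differed. Egln1, which encodes PHD2, the main oxygen sensor, was dim at 0.320 in wild-type M2, 0.265 in Lamtor1-deficient M2, 0.151 after Torin1 and 0.242 in M1, and passed 2-fold after Torin1 (log2 ratio -1.09, or -0.61 with normexp background correction) and, with the median scaling, in M1 as well, at -1.22. Egln3, which encodes PHD3 and is itself a HIF target (probe at chr12:55280953-55281012 on mm9), had 0.0518 in wild-type M2, 0.324 in Lamtor1-deficient M2, 0.102 in Torin1-treated M2 and 17.2 in M1. This was the largest difference of any member, 331-fold between M1 and M2, a log2 ratio of 8.37. A second probe was not well above background on 1 of the 4 arrays, and no M1 ratio is given for it. The wild-type M2 signal of 30.8 was close to the lowest signal called well above background on that array, 21.6, and with normexp background correction the M1 ratio was 6.68. Lamtor1 loss gave 2.64, or 1.51 with that correction, Torin1 gave 0.97, just under 2-fold, or 1.06 with the 75th percentile over detected probes, and the direct comparison of Torin1 with Lamtor1 loss gave -1.67, or -0.99 with the correction.

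Epas1, which encodes HIF-2alpha, gave different values at its 3 probes. At its brightest probe the ratios to wild-type M2 were 0.21 after Lamtor1 loss, 0.52 after Torin1 and 0.77 in M1. A second probe, also well above background on all arrays, read 3.18 in wild-type M2, 42.2 in Lamtor1-deficient M2, 7.79 in Torin1-treated M2 and 0.860 in M1, with ratios of 3.73, 1.29 and -1.89, and the dimmest gave 3.56, 0.93 and 0.23. Both of these had Lamtor1-deficient M2 as the highest of the 4 arrays, and the first did not.

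**Figure D4:**
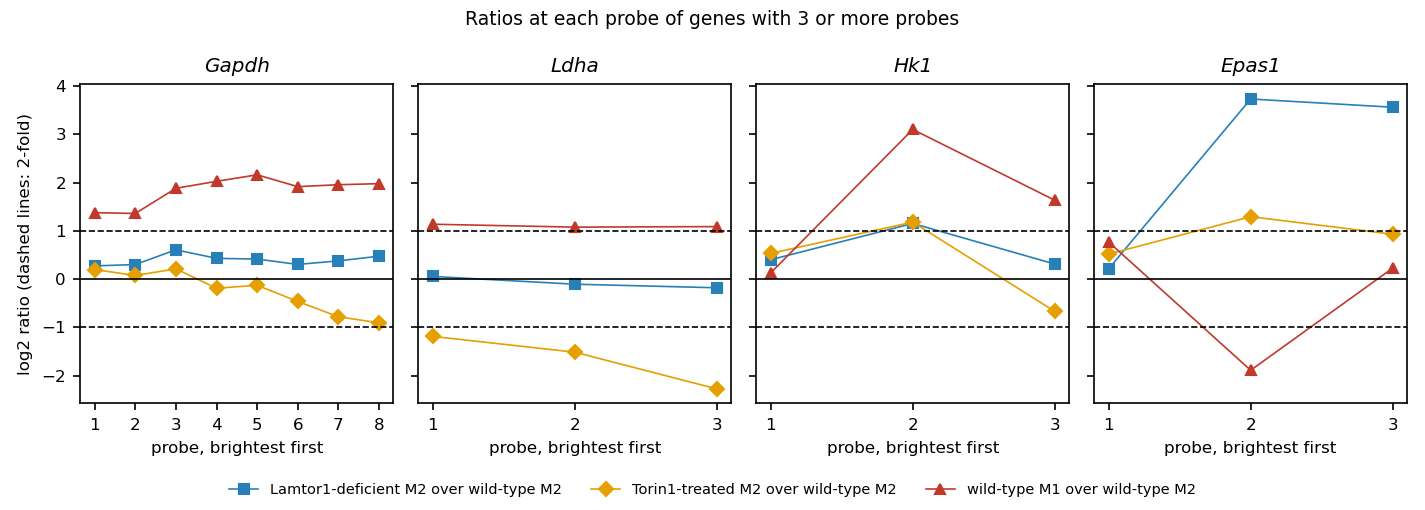
Log2 ratio to the wild-type M2 array at each probe of Gapdh, Ldha, Hk1 and Epas1, with probes ordered from brightest to dimmest, for Lamtor1-deficient M2 (blue squares), Torin1-treated M2 (orange diamonds) and M1 (red triangles), and dashed lines at 2-fold. The Torin1 ratio is lowest at the 3 dimmest of the 8 Gapdh probes and at the dimmest Ldha probe, and the probes of Hk1 and Epas1 differ by more than 1 on the log2 scale in at least 1 comparison.

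The probes of other members also bear on the values. The 39 genes had 66 probes, and 16 of them had several. After Torin1 the 8 Gapdh probes gave log2 ratios from -0.90 at the dimmest to 0.21, whereas after Lamtor1 loss they gave 0.27 to 0.61 and in M1 1.36 to 2.16. Ratios of 1 gene differed between probes by more than 1 on the log2 scale for 3 of 13 members with several detected probes after Torin1 (14.2% of 3622 such genes on the arrays), for 1 of 13 after Lamtor1 loss (7.21% of 3618) and for 5 of 13 in M1 (35.8% of 3285). In no comparison did probes of a member lie beyond 2-fold in opposite directions.

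The 8 targets of the hypoxia response were all at least 2-fold higher in M1, beside 25.2% of detected genes, with a median log2 ratio of 3.85. With the median scaling 7 of 8 were, beside 11.1%, at a median of 3.03. After Lamtor1 loss 1 was higher and none lower (median 0.07), beside 7.88% and 7.75% of detected genes. After Torin1 2 were higher and 2 lower (median -0.35), beside 12% and 13.1%, or 1 lower with normexp or with the 75th percentile over detected probes. Bnip3, a mediator of mitophagy (probe at chr7:146082760-146082819 on mm9), was at 12.7 in wild-type M2, 10.99 in Lamtor1-deficient M2, 11.8 after Torin1 and 186 in M1. The M2 states differed by less than 2-fold, and the M1 log2 ratios of its 3 probes lay between 3.88 and 4.13. Ankrd37, an ankyrin repeat protein, had 1.14 in wild-type M2, 0.742 after Lamtor1 loss, 0.747 after Torin1 and 25.0 in M1, 22.0-fold above wild-type M2. Ero1l, an oxidase that helps disulfide bonds to form in the endoplasmic reticulum, read 0.746, 1.22, 0.647 and 11.2 in that order, an M1 log2 ratio of 3.91. For Ankrd37 and Ero1l, too, M1 alone was 2-fold from wild-type M2, but Ero1l in the direct comparison of Torin1 with Lamtor1 loss was at -0.92, or -1.23 with the median scaling.

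Vegfa and Ndrg1 were higher after Torin1 as well. Vegfa, the growth factor of blood vessels (probe at chr17:46154387-46154446 on mm9), was 5.38 in wild-type M2, 8.86 in Lamtor1-deficient M2, 34.7 in Torin1-treated M2 and 127 in M1. The Torin1 array was 6.45-fold above wild-type M2 (log2 ratio 2.69, and 2.09 at a second probe) and 3.91-fold above Lamtor1-deficient M2, which made Vegfa the single member at least 2-fold higher in the direct comparison, joined by Ndrg1 with quantile normalization. In M1 its probes gave 4.57 and 6.48. Ndrg1, a stress-responsive gene (probe at chr15:66761057-66761116 on mm9), stood at 2.64 in wild-type M2, 11.6 after Lamtor1 loss, 20.1 after Torin1 and 37.2 in M1. Like Eno2 and Hk3 it was lowest in wild-type M2 and past 2-fold in each of the other states, with log2 ratios of 2.13, 2.93 and 3.82.

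Higd1a and P4ha2 were lower after Torin1. Higd1a, a small protein of the inner mitochondrial membrane (probe at chr9:121761621-121761680 on mm9), had a wild-type M2 level of 14.2, with 16.4 in Lamtor1-deficient M2, 3.59 in Torin1-treated M2 and 44.5 in M1. Torin1 left it 3.96-fold below wild-type M2 and 4.56-fold below Lamtor1-deficient M2, while Lamtor1 loss itself gave a log2 ratio of 0.20. P4ha2, a subunit of the collagen prolyl 4-hydroxylase, was at 1.36, 1.11, 0.666 and 5.19 in the usual order, with a Torin1 log2 ratio of -1.03, or -0.93 with normexp background correction and -0.94 with the 75th percentile over detected probes. P4ha1, the other catalytic subunit, read 1.92, 1.83, 1.36 and 9.54, and passed 2-fold in M1 alone (log2 ratio 2.32).

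**Figure D5:**
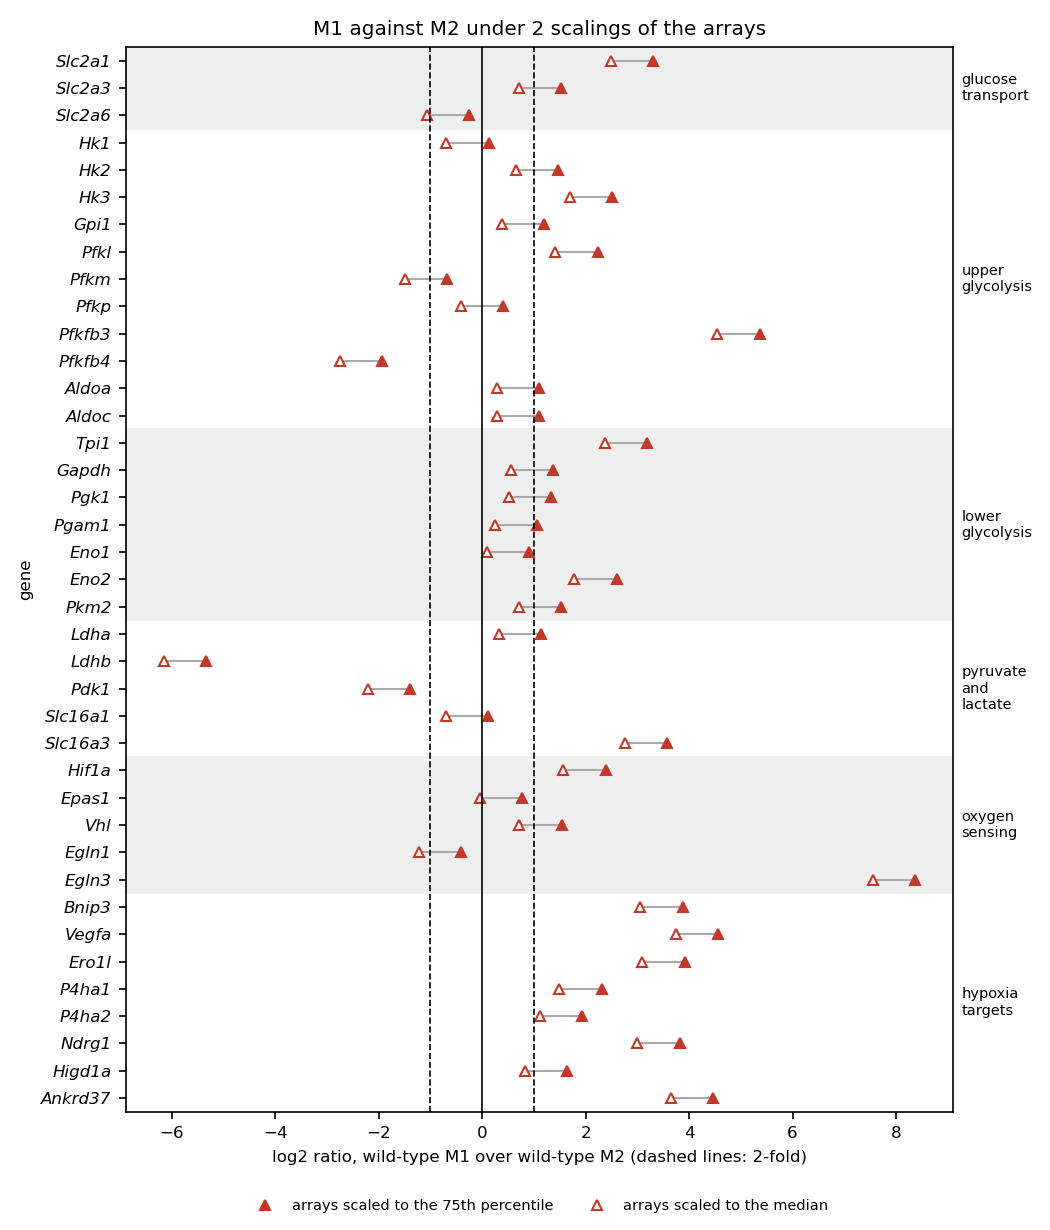
Log2 ratio of M1 over wild-type M2 for each gene, with arrays scaled to the 75th percentile (filled triangles) and to the median (open triangles), and dashed lines at 2-fold. The open triangles are all shifted to the left by the same amount, which brings the higher members from 28 to 16, while Egln3, Pfkfb3, Slc2a1, Tpi1, Slc16a3 and 7 of the 8 hypoxia targets stay beyond 2-fold.

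Since both treated M2 arrays were set against 1 wild-type M2 array, genes past 2-fold on both, such as Hk3, Eno2 and Ndrg1 above it and Pfkfb4 and Ldhb below it, carry the error of that array on both sides. The 6 neutrophil markers summed to 90.5 on that array, against 4.41 to 6.30 on the others, while Elane, left out of the sum, was higher on the M1 and Lamtor1-deficient arrays, and the part of such cells in these values was not tested. The members that were 2-fold lower after Torin1 and within 2-fold after Lamtor1 loss were Slc2a6, Pgk1, Ldha, Pdk1, Slc16a1, Egln1, P4ha2 and Higd1a. Of all detected genes 13.1% were lower after Torin1 and 7.75% after Lamtor1 loss. How many of them fall in this class, or past 2-fold on both treated arrays, was not counted. The direct comparison, which does not use the wild-type M2 array, sets these states against each other. In it Slc2a6, Pgk1, Ldha, Pdk1 and Higd1a were at least 2-fold lower after Torin1 than after Lamtor1 loss, with log2 ratios from -2.19 to -1.24, while Slc16a1 (-0.91), Egln1 (-0.82) and P4ha2 (-0.74) were under 2-fold. With arrays scaled to the median these 3 were past it as well, at -1.22, -1.13 and -1.05, and so were all 8. Hk2, Aldoc, Vhl and Egln3 completed the 9 lower members. With arrays scaled to the median 16 members were lower in the direct comparison, beside 21.8% of detected genes, whose median was -0.40.

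Other genes of the same pathways were read as lists. Of 22 other glycolytic isoenzymes and regulators 18 were detected on both arrays in each comparison, with 2 higher and 0 lower after Lamtor1 loss, 2 higher and 1 lower after Torin1, and 3 higher and 5 lower in M1. The medians were 0.27, -0.15 and -0.40. After Lamtor1 loss 11.1% were higher and 0% lower, beside 7.88% and 7.75% over all detected genes. After Torin1 the shares were 11.1% and 5.56%, beside 12% and 13.1%. In M1 these were 16.7% higher and 27.8% lower, beside 25.2% and 25.2% over all detected genes, and scaling to the median gave 1 higher, 10 lower and a median of -1.22, beside 11.1%, 43.2% and -0.73 over all detected genes. Pgm2, a phosphoglucomutase, read 18.1 in wild-type M2, 28.7 in Lamtor1-deficient M2, 11.02 after Torin1 and 79.3 in M1. Tigar, a fructose 2,6-bisphosphatase that slows glycolysis, was 3.27, 5.12, 2.67 and 0.557, and was lowest in M1. Pdk4, a pyruvate dehydrogenase kinase induced by fasting, had log2 ratios of 0.36 after Lamtor1 loss, 2.20 after Torin1 and -0.38 in M1. Ldhd, a D-lactate dehydrogenase, had 3.25, 1.70 and 0.40, and Pfkfb1, a further bifunctional enzyme, -0.32, 0.45 and -2.30.

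The pentose phosphate pathway branches from glycolysis and makes NADPH. All 9 of its listed genes were detected on all arrays, and in M1 0 were at least 2-fold higher and 4 lower, with a median log2 ratio of -0.85 and a highest value of -0.17, beside 25.2% lower over all detected genes. With the median scaling 8 were lower, beside 43.2%. Tkt, transketolase, read 127 in wild-type M2, 78.8 in Lamtor1-deficient M2, 62.0 after Torin1 and 28.8 in M1. G6pdx, the entry enzyme, was 71.9, 49.2, 34.1 and 55.3. Pgls, Pgd and Shpk had M1 log2 ratios of -2.60, -1.58 and -1.96. After Torin1 2 of the 9 were lower, G6pdx (-1.08) and Tkt (-1.03), with a median of -0.52, beside 13.1% lower over all detected genes. After Lamtor1 loss none passed 2-fold, with a median of -0.10, beside 7.88% higher and 7.75% lower. With the 75th percentile over detected probes 0 were lower after Torin1 and 1 after Lamtor1 loss, beside 11.6% and 8.47%. Quantile normalization also gave 1 lower after Lamtor1 loss, beside 7.76%. Thus all 9 had M1 ratios below 0, whereas the members of lower glycolysis had ratios above 0 with each scaling of the arrays.

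Of the 7 listed genes of gluconeogenesis 4 were detected in the M1 comparison, of which 1 was higher and 2 lower, beside 25.2% and 25.2% of detected genes, or 0 and 2 with arrays scaled to the median, beside 11.1% and 43.2%. The higher gene was G6pc, the glucose 6-phosphatase of liver, dim at 0.0536 in wild-type M2, 0.0545 in Lamtor1-deficient M2, 0.0727 after Torin1 and 0.180 in M1. Pcx, pyruvate carboxylase, was 1.104 in wild-type M2, 2.58 in Lamtor1-deficient M2, 1.15 after Torin1 and 0.205 in M1, and G6pc3, a glucose 6-phosphatase of many tissues, was 20.0, 34.3, 23.6 and 2.51. Both were lowest in M1. Fbp1, a fructose 1,6-bisphosphatase, was at 0.211 in wild-type and 0.176 in Lamtor1-deficient M2, and was not well above background after Torin1 or in M1. Of 27 other genes that respond to hypoxia 26 were detected in the M1 comparison, with 12 higher and 5 lower, 24 after Torin1, with 4 higher and 6 lower, and 25 after Lamtor1 loss, with 6 higher and 1 lower. Their medians were 0.72, 0.12 and 0.21. After Torin1 16.7% were higher and 25% lower, beside 12% and 13.1% over all detected genes. After Lamtor1 loss the shares were 24% and 4%, beside 7.88% and 7.75%. In M1 46.2% were higher and 19.2% lower, beside 25.2% and 25.2%. Scaling to the median gave 8 higher and 9 lower in M1, or 30.8% and 34.6%, beside 11.1% and 43.2% over all detected genes. It turned the M1 median to -0.10, beside -0.73 over all detected genes. Hilpda, a lipid droplet protein, stood at 2.18 in wild-type M2, 4.49 in Lamtor1-deficient M2, 29.6 after Torin1 and 191 in M1. Ddit4, which encodes REDD1, an inhibitor of mTORC1, read 2.87, 2.10, 0.620 and 40.6, and was lowest after Torin1. Tfrc, the transferrin receptor, was 32.2, 17.0, 2.52 and 0.218, and was highest in wild-type M2. Stc2, a secreted glycoprotein, was 0.0864 in wild-type M2, 0.297 in Lamtor1-deficient M2 and 1.27 in M1, and was not well above background after Torin1. Angptl4, an inhibitor of lipoprotein lipase, had log2 ratios of -1.71, -1.02 and -4.25, also lower than wild-type M2 on each other array. The other hypoxia-response genes therefore did not share 1 direction in M1.

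Of 11 housekeeping genes outside these pathways 0 passed 2-fold after Lamtor1 loss, beside 7.88% higher and 7.75% lower among detected genes. After Torin1 2 were lower, Hprt (-1.21) and Gusb (-1.31), beside 13.1% of detected genes. In M1 2 were higher, among them B2m (1.39), and 3 lower, among them Sdha and Gusb, beside 25.2% and 25.2% of detected genes. The medians were 0.08 after Lamtor1 loss, 0.08 after Torin1 and -0.16 in M1 at the 75th percentile. In M1 scaling to the median gave 1 higher, 5 lower and a median of -0.98, beside 11.1%, 43.2% and -0.73 over detected genes. Quantile normalization gave 0 higher, 3 lower and a median of -0.62, beside 20.5%, 27.6% and -0.08.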

How the data were processed

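RNA of 4 cultures of mouse BMDMs was labelled with Cy3 and hybridised to Agilent whole mouse genome arrays, 1 array per condition. The scanner files that the authors deposited hold the intensity of each spot, and their processed signal is background-subtracted by Agilent Feature Extraction and not scaled between arrays. Its version is 10.7.3.1 per the file headers and 10.5.1.1 per the submitters' processing notes. A deposited table of the series holds the same intensities, within 0.497% of those of the scanner files. Coordinates of probes were taken from the annotation on mm9 in these files, and exon positions were not used here.

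Following the study's methods, signals were raised to at least 1, divided by the array's 75th percentile over all 55679 probes and put on the log2 scale, with no filter. Of 62976 spots per array, 3671 control spots and between 170 and 226 outlier spots were left out, and spots of 1 probe were averaged. No spot was saturated. A gene's probe was the one with the highest mean log2 signal over the 4 arrays, among 31173 probes that carried a symbol for 23517 genes. Older symbols were matched through RefSeq on GRCm38.p6. Between 50.9% and 55.4% of probes were well above background, and the lowest such signal was between 15.7 and 21.6. No test could be run on single arrays, whose number limits the precision. A gene was counted from a 2-fold difference, and shares over all genes were taken over genes whose probe was well above background on both arrays.

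The 39 members, the 5 pathway lists and the 5 lists of cell type markers were chosen with earlier results of these data known, and some of the listed genes are not reported here by name. Levels on every array are given for members at least 2-fold apart in 1 or more of the 4 comparisons, and up to 5 genes of a list are named, those with the largest difference. Alternatives were other scalings (median, quantile, 75th percentile over detected probes), normexp background correction with an offset of 50 (limma 3.58.1, R 4.3.3), a filter or floor at the background, the mean over a gene's probes, kept outlier spots, a 3-fold threshold and the deposited series table. The counting was tested on simulated arrays. Python 3.11.15, NumPy 2.4.6, pandas 2.3.3 and matplotlib 3.10.9 were used.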

Additional observations from a re-analysis of the deposited data

How the results depend on the processing

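No paired analysis was possible because each condition had 1 array, and no replicate could be left out. With arrays scaled to the median, M1 over M2 had 16 members at least 2-fold higher and 6 lower and a median log2 ratio of 0.71, Torin1-treated over wild-type M2 had a median of -0.42, and Torin1-treated over Lamtor1-deficient M2 had 16 lower members, beside 21.8% of detected genes, and a median of -0.79. With quantile normalization the median was 0.011 for Lamtor1 loss, -0.38 for Torin1 and 1.39 for M1, the direct comparison had 2 higher members, and the M1 ratio of Aldoa turned from 1.101 to -0.046, the only member ratio past 2-fold to change sign. With the 75th percentile taken over detected probes the median of the direct comparison was -0.32, and with normexp the M1 median was 1.31. At a 3-fold threshold the lower members numbered 1 after Lamtor1 loss, 4 after Torin1 and 5 in the direct comparison, and the higher members in M1 numbered 17. Each cause follows from the alternative's own construction or was not tested. Of 64 member ratios past 2-fold, 12 came under 2-fold with the median, all of them in M1, 7 with quantile normalization, 7 with normexp, 2 with the 75th percentile over detected probes and 0 with the mean over probes, the floor, the background filter, kept outlier spots or the series table. All members were well above background on all arrays, and dim ones moved with the background correction, Egln3 from 8.37 to 6.68 in M1 and Egln1 from -1.09 to -0.61 after Torin1.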
